A study of Homo sapiens with 6 samples.

Results

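HaCaT cells, an immortalized human keratinocyte line, were profiled by bulk RNA sequencing 4 h after addition of interleukin-1α (IL-1α) or of PBS alone. The comparison took in the wild-type cells: 1 library given PBS, called unstimulated, and 2 libraries given IL-1α, called replicates 1 and 2. A gene was included if it reached 1 RPKM (reads per kilobase of exon, scaled to library depth) in at least 1 of these 3 libraries, which held for 12457 of the 27945 genes in the table. The other 3 of the 6 libraries came from p38α-knockout HaCaT cells, 1 unstimulated and 2 with IL-1α. They entered here to estimate the spread between replicates, in the choice of genes fitted, and in the fits with rescaling or with the length trend removed. The labels do not say whether replicates were separate cultures, so the p-values measure the spread between these libraries, which may be technical, and the unstimulated wild-type state rests on 1 library.

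IL-1α is an alarm cytokine that keratinocytes store and release on injury. Bound to its receptor IL1R1 and the accessory chain IL1RAP, it acts through the MYD88 and IRAK proteins to free NF-κB from its IκB inhibitors and to activate the p38, JNK and ERK kinases. In skin the pathway is known for inducing chemokines that draw neutrophils, antimicrobial proteins and the inhibitors that shut the pathway down again. HaCaT cells grow without limit, which restricts them as a model of normal epidermis.

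To show what lies upstream of the genes that responded, the 250 bases before the start site of 5 of them are printed, from RefSeq (GRCh38.p14), 5′ to 3′ on the gene's strand. These genes and motifs were chosen with the expression values known. Capitals mark matches on either strand to GGANTTTCC (a core form of the NF-κB motif), TGANTCA (AP-1), GAAANNGAAA (interferon-stimulated response element) and TATAAA (the core promoter element bound by TBP).
CXCL8 (chr4:73740319-73740568, plus strand): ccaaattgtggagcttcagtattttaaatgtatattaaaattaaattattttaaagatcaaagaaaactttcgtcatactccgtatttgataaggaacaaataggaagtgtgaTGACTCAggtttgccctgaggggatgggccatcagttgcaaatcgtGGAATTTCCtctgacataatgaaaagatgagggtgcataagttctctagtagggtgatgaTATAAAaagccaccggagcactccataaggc
CXCL6 (chr4:73836428-73836677, plus strand): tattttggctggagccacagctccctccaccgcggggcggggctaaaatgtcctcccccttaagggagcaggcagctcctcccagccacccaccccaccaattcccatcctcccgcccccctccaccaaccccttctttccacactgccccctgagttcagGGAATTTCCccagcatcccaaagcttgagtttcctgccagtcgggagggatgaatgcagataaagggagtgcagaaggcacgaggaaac
TNFAIP3 (chr6:137867009-137867258, plus strand): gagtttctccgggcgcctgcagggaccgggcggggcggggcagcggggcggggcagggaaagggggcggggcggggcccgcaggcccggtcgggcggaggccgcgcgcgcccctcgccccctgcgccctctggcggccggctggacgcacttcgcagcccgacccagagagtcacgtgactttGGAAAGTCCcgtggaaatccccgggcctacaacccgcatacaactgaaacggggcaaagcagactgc
IFIH1 (chr2:162318685-162318934, minus strand): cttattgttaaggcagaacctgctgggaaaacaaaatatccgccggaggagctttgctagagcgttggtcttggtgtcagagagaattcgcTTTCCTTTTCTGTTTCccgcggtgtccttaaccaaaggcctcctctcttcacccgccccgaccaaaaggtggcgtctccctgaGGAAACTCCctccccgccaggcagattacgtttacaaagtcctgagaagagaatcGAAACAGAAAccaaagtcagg
SPRR2A (chr1:153057513-153057762, minus strand): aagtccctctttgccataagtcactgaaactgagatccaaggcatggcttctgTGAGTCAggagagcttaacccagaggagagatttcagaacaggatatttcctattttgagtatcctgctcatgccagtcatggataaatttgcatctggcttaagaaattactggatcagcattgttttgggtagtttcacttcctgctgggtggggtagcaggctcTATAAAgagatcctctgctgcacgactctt
Counting the base before the start site as -1, the GGANTTTCC match of CXCL8 ran from -91 to -83 and that of CXCL6, its neighbour on chromosome 4, from -89 to -81. CXCL8 also had TGANTCA from -137 to -131. In TNFAIP3 the GGANTTTCC match ran from -67 to -59, and in IFIH1 from -76 to -68, both on the strand opposite to the gene. SPRR2A held TGANTCA from -197 to -191 and TATAAA from -30 to -25.

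A promoter was found for 9721 of the 12457 genes. GGANTTTCC was present in the window of 6 of the 18 matched genes that rose (33.3%), against 1.54% of all 9721 and 1.47% of the 27305 RefSeq promoters. It was present in 20 of 143 matched genes that were at least 2-fold higher in both IL-1α libraries (14.0%) and in 2 of 144 that were at least 2-fold lower in both (1.39%). TGANTCA was present in 27.8% of the genes that rose, in 18.9% of those 2-fold higher and in 4.17% of those 2-fold lower, against 4.1% of the 9721 and 6.6% of RefSeq promoters. TATAAA gave 33.3%, 18.2% and 13.9%, against 5.32% of the 9721 and 11.1% of RefSeq promoters. A broader NF-κB consensus, which overlaps most GGANTTTCC matches, was present in 55.6% of the genes that rose and in 9.57% of RefSeq promoters. Among 26 matched interferon-stimulated genes, GAAANNGAAA was present in 15 (57.7%), against 3.07% of RefSeq promoters. The shares are descriptions of sequence, and a match is not evidence of binding.

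Depth, recovered from the steps between low RPKM values, was 16727126 reads in the unstimulated library and 16294304 and 18535568 in the IL-1α libraries, of which 80.2% to 83.2% fell in exons. The IL-1α pair correlated at 0.984 across genes, which are not independent replicates, and correlated with the unstimulated library at 0.958 and 0.946. The pair differed by more than sampling noise and was counted as the 2 samples that the labels give, which does not show that they were separate cultures. All 10 keratinocyte markers reached 1 RPKM, with a summed level of 6627 RPKM unstimulated and 6603 and 5652 RPKM with IL-1α. None of 6 melanocyte markers reached 1 RPKM, and of 7 fibroblast markers 1 did, with sums of 1.67 to 2.59 RPKM and COL1A2, PDGFRA and PDGFRB at 0. Among 6 endothelial markers CDH5 alone did, with PECAM1 and TIE1 at 0, and among 7 leukocyte markers CD68 alone, with LYZ at 0.

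Of the 12457 genes, 26 rose after IL-1α (0.209%) and 2 fell (0.0161%) in limma on log2(RPKM + 0.5) with Benjamini-Hochberg adjustment at 0.05. Small proline-rich proteins, chemokines, NF-κB inhibitors with survival factors, and secreted host-defence proteins made up most of the rises. The 2 falls were SLC39A2, a zinc importer, and SNHG19, a host RNA of small nucleolar RNAs. In bulk RNA a larger share of cells expressing a gene and more RNA per cell cannot be told apart. All 28 were at least 2-fold from the unstimulated library in each IL-1α library. At that fold, without a test, 215 genes were higher in both IL-1α libraries (1.73%) and 271 were lower in both (2.18%), while 704 passed it in 1 library and 2 passed it in opposite directions.

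The 2 IL-1α libraries lay on the same side of the unstimulated library for most genes, 3442 higher in both (27.6%) and 6797 lower in both (54.6%). The median difference over all genes was -0.15 on the log2(RPKM + 0.5) scale. Rescaling by the median of ratios moved it to -0.01 and turned the split at 2-fold to 268 higher and 175 lower, after which 46 genes rose and 2 fell, the same 28 among them. Fitting only the genes that reach 1 RPKM in the wild-type libraries raised the calls to 51 up and 9 down, and fitting only genes reaching 5 RPKM raised them to 106 and 56. Leaving out either IL-1α library of the wild type left the other without a partner, and the spread then came from the knockout pair alone. Without knockout IL-1α replicate 1 or 2, 46 and 44 genes passed, and 19 of the 28 were among them in each case.

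**Figure D1:**
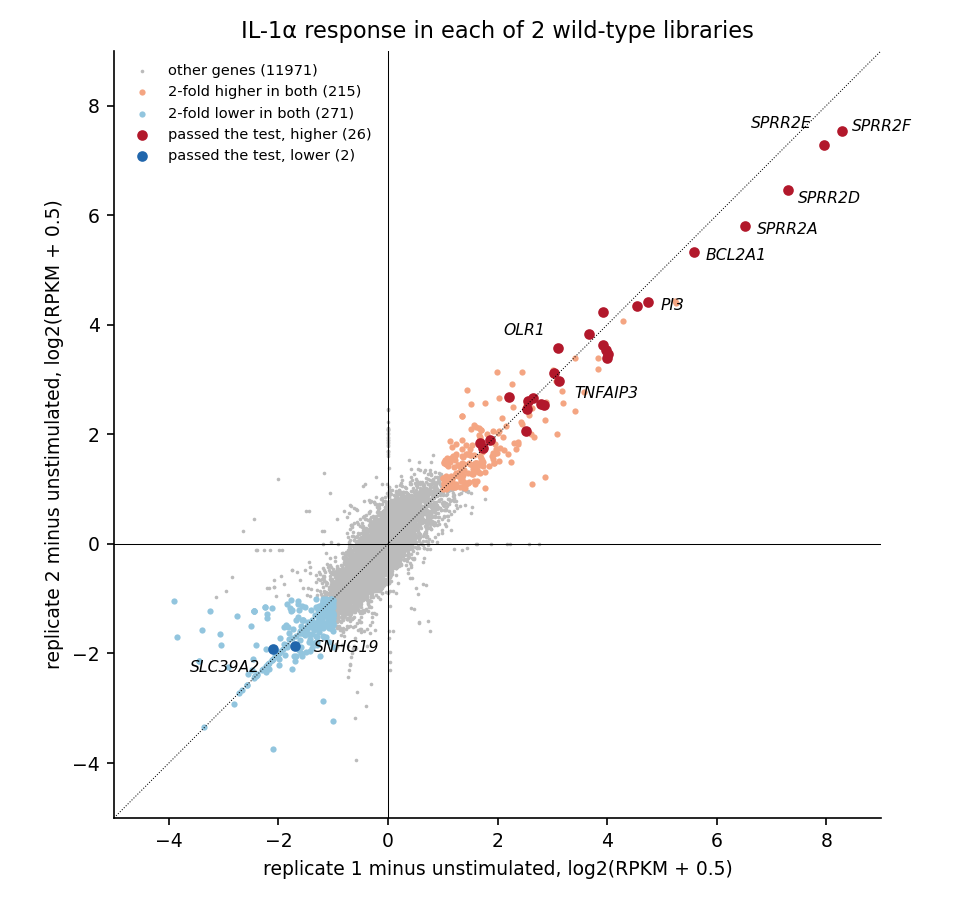
Difference of each wild-type IL-1α library from the unstimulated library on the log2(RPKM + 0.5) scale, replicate 1 on the horizontal and replicate 2 on the vertical axis, with 1 point per gene (12457). The 26 genes that rose lie along the dotted line of equal difference, from IFIH1 and ETS1 near 1.7 to SPRR2F at 7.91, and SLC39A2 and SNHG19 lie at the lower left among 271 genes that were 2-fold lower in both.

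The largest rises were in the small proline-rich proteins, short precursors that are cross-linked into the cornified envelope of keratinocytes. Of 7 members, 4 rose, all 7 were at least 2-fold higher in both libraries, and their median difference was 6.16. SPRR2A (chromosome 1, 153028596 to 153029988, hg19) read 4.80 RPKM unstimulated and 483 and 295 RPKM with IL-1α, a difference of 6.16 ± 0.31 (SE, adjusted p = 0.00516). SPRR2D read 1.85 RPKM and then 369 and 206 RPKM (6.87 ± 0.35, adjusted p = 0.00516), and SPRR2E 0.353 RPKM and then 212 and 132 RPKM (7.62 ± 0.57, adjusted p = 0.0134). SPRR2F had 0 reads unstimulated and 1688 and 1136 reads with IL-1α, at least 460-fold higher against a floor of 3 reads (7.91 ± 0.48, adjusted p = 0.00773). These paralogs are nearly identical, so reads may be split among them and their separate values are uncertain.

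SPRR1A, SPRR1B and SPRR3 did not pass, although both IL-1α libraries were above the unstimulated one. SPRR1A went from 2.91 RPKM to 128 and 73.5 RPKM (4.84 ± 1.02, adjusted p = 0.133). The spread behind this error included the knockout IL-1α pair, which read 34.3 and 4.59 RPKM. SPRR1B, the most abundant of the 3, went from 15.1 RPKM to 186 and 106 RPKM (3.18 ± 0.68, adjusted p = 0.135). Replicate 1 was above replicate 2 for each of these 7 genes. Other envelope precursors and transglutaminases did not share the direction: of 6 members 0 passed and 0 were higher in both libraries (27.6% over all genes). Of these 6, 4 were lower in both, near the share of 54.6% over all genes. Among the 4 was involucrin, IVL, at 130 RPKM unstimulated and 71.4 and 84.0 RPKM with IL-1α (adjusted p = 0.444).

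Chemokines that bind CXCR1 and CXCR2 and draw neutrophils were the second group. All 5 members were at least 2-fold higher in both libraries with a median difference of 3.73, and 3 of them rose. CXCL8 (chromosome 4, 74606223 to 74609433, hg19) read 17.7 RPKM unstimulated and 286 and 212 RPKM with IL-1α (3.76 ± 0.38, adjusted p = 0.0358), and CXCL6 read 9.48 RPKM and then 160 and 109 RPKM (3.73 ± 0.41, adjusted p = 0.0446). Both carry GGANTTTCC within 100 bases of the start site, as printed above. CXCL5 had 0 reads unstimulated and 286 and 410 with IL-1α, at least 111-fold higher (4.08 ± 0.46, adjusted p = 0.0478). CXCL1, at 19.4 RPKM and then 285 and 182 RPKM, had levels close to those of CXCL8 but did not pass (3.52 ± 0.51, adjusted p = 0.0672), nor did CXCL3 (3.62 ± 0.46, adjusted p = 0.0609). CXCL2 stayed below 1 RPKM in the 3 libraries, at 0.1 and then 0.974 and 0.856 RPKM. CXCL1, CXCL2 and CXCL3 are close paralogs whose reads may be shared.

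Of 7 other chemokines, 2 rose and 6 were at least 2-fold higher in both libraries (median 1.81). CCL5, which draws T cells and monocytes, read 0.928 RPKM unstimulated and 33.0 and 28.4 RPKM with IL-1α (4.44 ± 0.33, adjusted p = 0.0134). CCL20, the ligand of CCR6 on dendritic and T-helper cells, had 1 read unstimulated and 117 and 85 with IL-1α, a ratio of 97.0 with an exact 95% counting interval of 17.2 to 3850 (3.69 ± 0.33, adjusted p = 0.0281). The most abundant was CCL2, which recruits monocytes, at 9.75 RPKM and then 201 and 172 RPKM. Its difference of 4.18 did not pass (SE 1.56, adjusted p = 0.245), the knockout IL-1α pair standing at 206 and 8.87 RPKM; from the wild-type libraries alone the adjusted p was 0.0364, and it ranged from 0.0364 to 0.743 over all settings tried. CXCL16, a membrane-bound chemokine and scavenger receptor, started at 45.7 RPKM and read 122 and 93.3 RPKM (1.21 ± 0.22, adjusted p = 0.112).

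**Figure D2:**
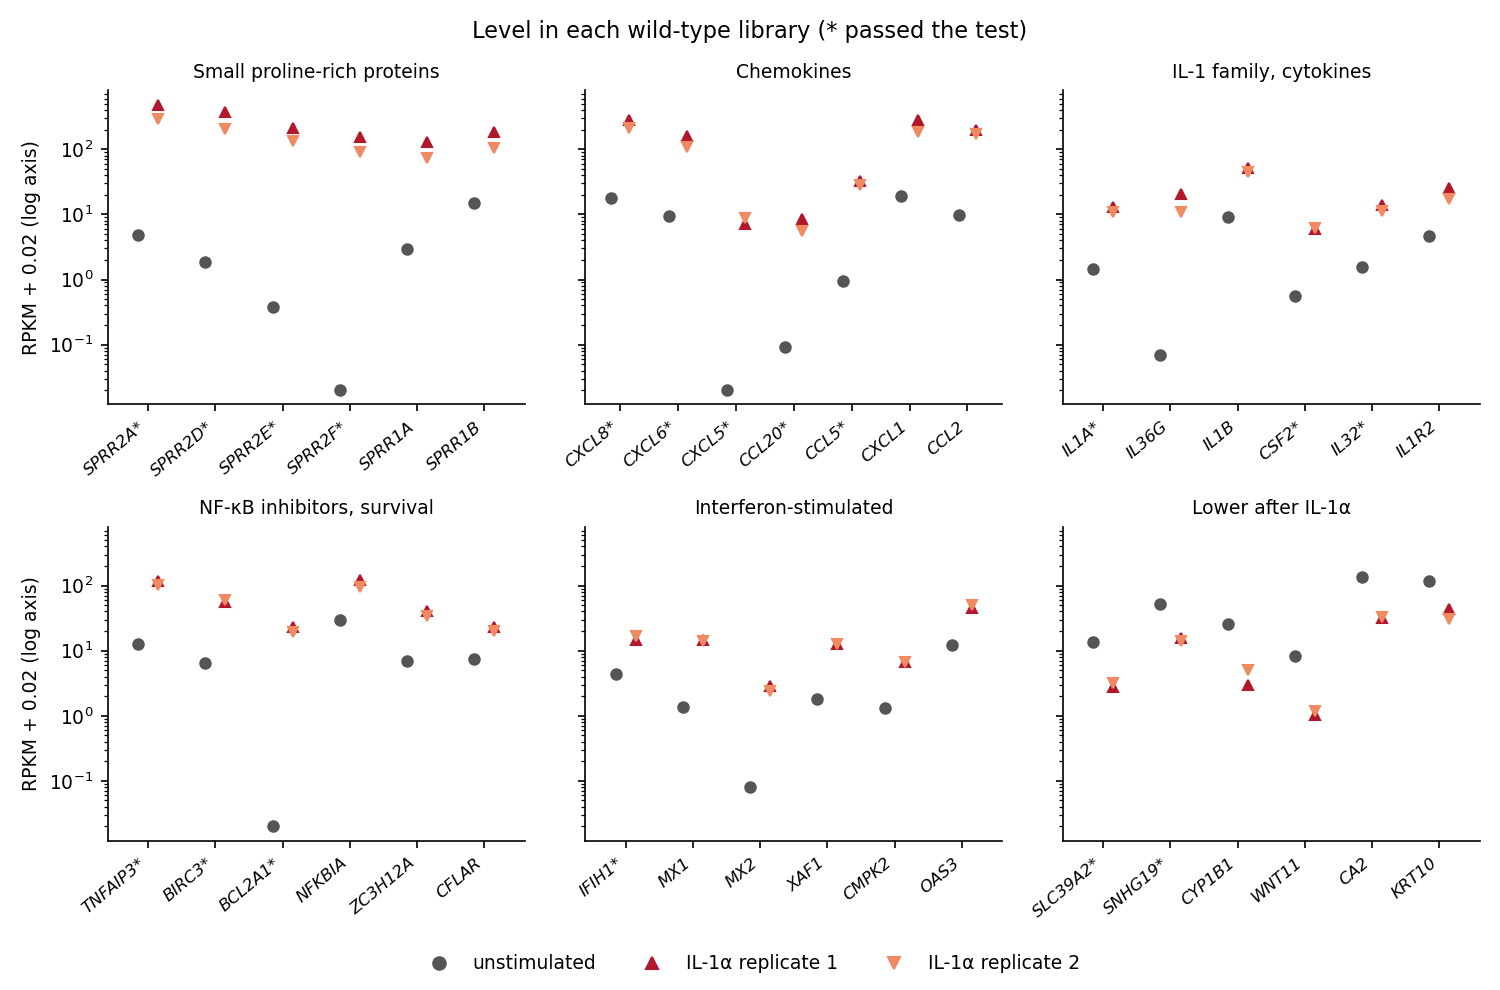
RPKM in each wild-type library (plus 0.02, log axis) for genes of 6 groups, with the unstimulated library as a grey circle and IL-1α replicates 1 and 2 as triangles; an asterisk marks genes that passed the test. In the first 5 panels both IL-1α libraries lie above the unstimulated one for every gene shown, and in the last both lie below it; SPRR2F, CXCL5 and BCL2A1 are at 0 RPKM unstimulated.

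Among IL-1 family ligands, the gene of the stimulus itself rose. IL1A (chromosome 2, 113531492 to 113542975, hg19) read 1.45 RPKM unstimulated and 13.0 and 10.9 RPKM with IL-1α (2.67 ± 0.29, adjusted p = 0.0446). IL36G, an epidermal relative that signals through IL1RL2, had 1 read unstimulated and 405 and 247 with IL-1α, a ratio of 313 with a 95% counting interval of 56.0 to 12400, and did not pass (4.83 ± 0.70, adjusted p = 0.0672). IL1B went from 9.07 RPKM to 51.0 and 44.2 RPKM (2.33 ± 0.32, adjusted p = 0.0621). The receptor antagonist IL1RN, already at 73.7 RPKM, read 145 and 114 RPKM (0.80 ± 0.22, adjusted p = 0.167). IL18, the most abundant ligand of the family here, was at 130 RPKM unstimulated and at 116 and 94.1 RPKM with IL-1α (adjusted p = 0.522). Of the 5 members, 1 rose, 3 were 2-fold higher in both libraries and IL18 was lower in both.

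Of 18 receptors and proximal signalling genes, 0 passed and 3 were 2-fold higher in both libraries. These were IL1R2, the decoy receptor that binds IL-1 without signalling (4.59 RPKM, then 25.7 and 17.4 RPKM, adjusted p = 0.0715), IL1RL1, the receptor of IL-33 (5.15 RPKM, then 28.7 and 20.1 RPKM, adjusted p = 0.191), and the kinase gene IRAK2 (0.173 RPKM, then 1.62 and 2.16 RPKM, adjusted p = 0.0915). The signalling chains were close to their unstimulated level. IL1R1 read 10.6 RPKM and then 12.1 and 11.5 RPKM (0.15 ± 0.34), and IL1RAP 10.1 RPKM and then 9.66 and 10.2 RPKM (-0.02 ± 0.19); the sign of both changed with the processing.

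Of 10 colony-stimulating factors and epithelial cytokines, 2 rose and 6 were at least 2-fold higher in both libraries (median 1.61). CSF2, which encodes GM-CSF, read 0.537 RPKM unstimulated and 5.99 and 6.10 RPKM with IL-1α (2.66 ± 0.23, adjusted p = 0.026). IL32, a secreted inducer of further cytokines, read 1.51 RPKM and then 13.9 and 11.2 RPKM (2.69 ± 0.31, adjusted p = 0.0491). EBI3, a subunit of IL-27 and IL-35, had 0 reads unstimulated and 58 and 40 with IL-1α, at least 15.9-fold higher, and did not pass (adjusted p = 0.0715). IL23A (1.90 RPKM, then 8.95 and 7.5 RPKM) and LIF (11.5 RPKM, then 44.7 and 34.5 RPKM) did not pass either, at adjusted p = 0.128 and 0.17. IL6 stood at 2.73 RPKM and then at 4.15 and 5.34 RPKM, below 2-fold in both libraries (adjusted p = 0.321). TNF and LTB, each annotated at 8 places, were listed at 0 in every library and give no measurement.

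The inhibitors and survival genes that NF-κB induces formed a further group: 4 of 16 rose, 7 were at least 2-fold higher in both libraries and all 16 were higher in both. TNFAIP3 (chromosome 6, 138188325 to 138204451, hg19), the A20 enzyme that edits ubiquitin chains and ends NF-κB signalling, read 12.8 RPKM unstimulated and 116 and 104 RPKM with IL-1α (3.05 ± 0.29, adjusted p = 0.0297). BIRC3, a ubiquitin ligase that blocks cell death, read 6.43 RPKM and then 55.8 and 59.3 RPKM (3.07 ± 0.19, adjusted p = 0.00773). BCL2A1, an anti-apoptotic BCL2 relative, had 0 reads and then 336 and 320, at least 106-fold higher (5.45 ± 0.42, adjusted p = 0.0134). SOD2, the mitochondrial superoxide dismutase, read 20.3 RPKM and then 95 and 133 RPKM (2.44 ± 0.27, adjusted p = 0.0446). TNFAIP2 was higher at 34.5 RPKM and then 142 and 221 RPKM without passing (adjusted p = 0.0609).

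Of 15 NF-κB subunits and IκB proteins, 0 passed and 5 were at least 2-fold higher in both libraries, with a median of 0.59 against -0.15 over all genes. NFKBIA, the IκBα inhibitor, was at 29.9 RPKM unstimulated and at 120 and 95.1 RPKM with IL-1α (1.82 ± 0.29, adjusted p = 0.0831). NFKB2 read 27.2 RPKM and then 83.9 and 75.7 RPKM (1.53 ± 0.29, adjusted p = 0.113), NFKBIZ 5.95 RPKM and then 18.4 and 16.8 RPKM (1.49 ± 0.21, adjusted p = 0.0645), and NFKB1 21.8 RPKM and then 50.7 and 58.6 RPKM (1.30 ± 0.24, adjusted p = 0.112). In each of these 4 genes both IL-1α libraries were above 2 times the unstimulated value. ZC3H12A, the RNase Regnase-1 that degrades cytokine mRNAs, went from 7.03 RPKM to 40.6 and 33.8 RPKM (2.32 ± 0.32, adjusted p = 0.0637); of the 11 mRNA decay and stability factors it and ZC3H12C were 2-fold higher in both libraries and 0 passed.

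Secreted host-defence proteins moved unequally, and 3 of 11 members rose. Of the 11, 7 were higher in both libraries (27.6% over all genes) and 3 were lower in both (54.6% over all genes). LCN2, which sequesters bacterial siderophores, was the most abundant of the 3 that rose, at 81.5 RPKM unstimulated and 471 and 342 RPKM with IL-1α (2.29 ± 0.25, adjusted p = 0.0446). PI3, the elastase inhibitor elafin, read 1.41 RPKM and then 51.0 and 40.2 RPKM (4.58 ± 0.42, adjusted p = 0.0289). SERPINA3, made in the acute-phase response against neutrophil proteases, had 3 reads and then 188 and 242, a ratio of 68.8 with a 95% counting interval of 23.4 to 335 (3.75 ± 0.28, adjusted p = 0.0134). S100A8, S100A9 and S100A7, known as inducible in inflamed skin, did not pass. S100A9 read 7.32 RPKM and then 10.2 and 9.72 RPKM (adjusted p = 0.403), S100A8 1.37 RPKM and then 0.563 and 0.124 RPKM (adjusted p = 0.286), and S100A7 4.27 RPKM and then 5.23 and 3.61 RPKM (adjusted p = 0.983), so that 1 was higher in both libraries, 1 lower in both and 1 on opposite sides. The S100A8 transcript has 436 bases, where few reads make 1 RPKM, so its direction is uncertain.

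Of 34 interferon-stimulated genes 31 were higher in both IL-1α libraries (27.6% over all genes) and 16 were at least 2-fold higher in both (1.73% over all genes), with a median of 0.997. IFIH1, the cytosolic double-stranded RNA sensor MDA5, was the 1 member that rose, from 4.29 RPKM to 14.8 and 16.6 RPKM (1.76 ± 0.20, adjusted p = 0.0478). The largest differences were those of the antiviral GTPase gene MX1 (1.34 RPKM, then 14.8 and 13.9 RPKM, adjusted p = 0.0609), of XAF1 (1.77 RPKM, then 12.6 and 12.6 RPKM, adjusted p = 0.0776), of MX2 (3 reads, then 136 and 130, ratio 42.6 with a 95% counting interval of 14.4 to 208) and of the nucleotide kinase gene CMPK2 (1.28 RPKM, then 6.64 and 6.73 RPKM, adjusted p = 0.0715). OAS3, an RNA-activated oligoadenylate synthetase, read 12.4 RPKM and then 44.5 and 50.9 RPKM (adjusted p = 0.0621), and IRF9, the DNA-binding part of the interferon-activated factor, 9.83 RPKM and then 39.1 and 31.7 RPKM (adjusted p = 0.0672). Not every member was higher in both libraries. IFIT2 was at 43.5 RPKM unstimulated and at 40.5 and 44.9 RPKM with IL-1α, ISG15 at 61.6 RPKM and then 79.3 and 61.1 RPKM, and HERC5 likewise had its 2 IL-1α libraries on opposite sides. The sign of IFIT2 changed with the processing, and those of IFIT2 and ISG15 changed without IL-1α replicate 1 (to 0.046 and -0.011).

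In the plasminogen system, whose proteases open the matrix for migrating keratinocytes, 1 of 6 members rose and 4 were at least 2-fold higher in both libraries. PLAT, tissue plasminogen activator, read 7.54 RPKM unstimulated and 46.2 and 43.8 RPKM with IL-1α (2.50 ± 0.19, adjusted p = 0.0134). SERPINB2, an inhibitor of plasminogen activators and the most abundant member, read 716 RPKM and then 2562 and 1917 RPKM (1.63 ± 0.31, adjusted p = 0.115). PLAU, the urokinase gene, read 111 RPKM and then 306 and 242 RPKM (1.29 ± 0.24, adjusted p = 0.112), and SERPINE2 2.58 RPKM and then 9.54 and 8.58 RPKM (1.63 ± 0.20, adjusted p = 0.0579). Activators and inhibitors were thus both among the members at least 2-fold higher in both libraries.

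Of 8 other clade B serpins 0 passed and 3 were 2-fold higher in both libraries, the most abundant being SERPINB1, an inhibitor of neutrophil proteases, at 47.3 RPKM and then 149 and 118 RPKM (1.48 ± 0.21, adjusted p = 0.0672).

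Matrix and adhesion genes gave no call. Of 11 matrix metalloproteases and inhibitors 3 were 2-fold higher in both libraries, led by MMP13, a collagenase, at 4.97 RPKM and then 33.4 and 30.0 RPKM (2.56 ± 0.40, adjusted p = 0.0831). Of 16 basement membrane and integrin genes 2 were at that fold, among them LAMA3, a laminin chain, at 114 RPKM and then 232 and 319 RPKM (1.25 ± 0.32, adjusted p = 0.155). GJB2, the connexin 26 gene, was the 1 of 20 junction genes, at 11.6 RPKM and then 58.8 and 42.8 RPKM (2.07 ± 0.28, adjusted p = 0.0621). ICAM1, the ligand of leukocyte integrins, read 3.88 RPKM and then 19.0 and 19.0 RPKM; it did not pass (SE 0.79, adjusted p = 0.237), the knockout IL-1α pair reading 7.30 and 35.2 RPKM. CDH5, a cadherin known from endothelium, read 1.45 RPKM and then 11.4 and 11.8 RPKM (adjusted p = 0.19), with the other 5 endothelial markers under 1 RPKM.

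The remaining rises belonged to no common list. OLR1, a scavenger receptor for oxidized lipoprotein, read 9.17 RPKM unstimulated and 82.3 and 115 RPKM with IL-1α (3.34 ± 0.32, adjusted p = 0.0297). IGFL1, a small secreted protein of the insulin-like growth factor type, read 5.80 RPKM and then 95.3 and 77.0 RPKM (3.77 ± 0.29, adjusted p = 0.0134). WNT4, a secreted WNT ligand, read 0.613 RPKM and then 6.08 and 6.33 RPKM (2.59 ± 0.25, adjusted p = 0.0297). ETS1, a transcription factor, read 26.1 RPKM and then 87.6 and 89.5 RPKM (1.74 ± 0.18, adjusted p = 0.0446), and RAP1GAP, which switches off the small GTPase RAP1, read 3.68 RPKM and then 14.6 and 15.1 RPKM (1.88 ± 0.21, adjusted p = 0.0478). For WNT4, ETS1 and RAP1GAP the IL-1α pair lay close together and well above the unstimulated library. Close to the threshold without passing stood CDKN1A, the cell-cycle inhibitor p21, at 32.1 RPKM and then 108 and 91.3 RPKM (adjusted p = 0.0579).

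SLC39A2 (chromosome 14, 21467414 to 21470034, hg19), which carries zinc into the cell, read 13.6 RPKM unstimulated and 2.79 and 3.22 RPKM with IL-1α (-2.01 ± 0.23, adjusted p = 0.0478). Of the 11 zinc transporters and metallothioneins it was the 1 called, and 6 were lower in both libraries, near the 54.6% over all genes. SNHG19, with a transcript of 355 bases, read 51.4 RPKM and then 15.6 and 13.8 RPKM (-1.77 ± 0.19, adjusted p = 0.0446). Its difference was -1.20 with the trend over transcript length removed, and it then no longer passed (adjusted p = 0.052), whereas SLC39A2 stayed at -1.79 (adjusted p = 0.0401). Over all settings the adjusted p ran from 0.0056 to 0.734 for SNHG19 and from 0.0172 to 0.734 for SLC39A2.

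SLC39A2 apart, the genes of at least 1 kb with large decreases in both libraries did not pass. CYP1B1, a cytochrome P450 controlled by the aryl hydrocarbon receptor, read 25.8 RPKM unstimulated and 2.96 and 5.04 RPKM with IL-1α (-2.59 ± 0.40, adjusted p = 0.0761). Its relative CYP1A1, controlled by the same receptor, read 3.13 RPKM and then 0.161 and 0.343 RPKM (adjusted p = 0.07). WNT11 read 8.25 RPKM and then 0.991 and 1.18 RPKM (-2.47 ± 0.38, adjusted p = 0.0761), the opposite direction to WNT4, and APCDD1, a membrane inhibitor of WNT signalling, 13.1 RPKM and then 3.15 and 3.34 RPKM (adjusted p = 0.157). CA2, carbonic anhydrase 2, was at 136 RPKM and then at 32.2 and 32.3 RPKM (-2.06 ± 0.32, adjusted p = 0.0838). TXNIP, an arrestin that limits glucose uptake, was at 24.2 RPKM and then at 5.78 and 7 RPKM (-1.85 ± 0.23, adjusted p = 0.0579), and RGS7, a regulator of G-protein signalling, at 8.40 RPKM and then at 2.13 and 2.2 RPKM (adjusted p = 0.0621). With the length trend removed CYP1B1, TXNIP and RGS7 passed, at adjusted p = 0.0401, 0.0347 and 0.0401, and over all settings their adjusted p ranged up to 0.734.

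Other lists of keratinocyte differentiation gave no call. All 8 epidermal kallikreins and inhibitors, proteases that release corneocytes and their brakes, were lower in both libraries (54.6% over all genes), with a median of -0.71 and of -0.58 after removal of the length trend. KLK8 read 49.9 RPKM and then 25.9 and 19.2 RPKM (adjusted p = 0.128). Of 9 simple, mucosal and suprabasal keratins 8 were lower in both libraries and 2 were at least 2-fold lower: KRT10, the keratin of the suprabasal layers (119 RPKM, then 44.1 and 30.3 RPKM, adjusted p = 0.139), and KRT4 (428 RPKM, then 201 and 209 RPKM, adjusted p = 0.383). Of 6 basal and wound-activated keratins 4 were lower in both libraries and 0 were 2-fold apart; KRT17 read 2245 RPKM and then 2167 and 1745 RPKM (adjusted p = 0.876) and KRT5 1036 RPKM and then 767 and 752 RPKM (adjusted p = 0.403). Of 13 keratinocyte transcription factors 9 were higher in both libraries (27.6% over all genes) and 3 lower in both (54.6% over all genes), with a median of 0.30. PADI1, which citrullinates keratins, read 12.1 RPKM and then 3.65 and 3.58 RPKM (adjusted p = 0.1), and OVOL2, the 1 of those factors at least 2-fold lower in both libraries, 5.46 RPKM and then 1.74 and 2.07 RPKM (adjusted p = 0.138). SCEL, a precursor of the cornified envelope, read 25.7 RPKM and then 9.41 and 9.32 RPKM (-1.41 ± 0.20, adjusted p = 0.0656). With the length trend removed SCEL passed, at -1.46 (adjusted p = 0.0364). KRT4 and OVOL2, at -0.98 and -1.01, were then no longer 2-fold lower in both libraries, whereas KRT10 and PADI1 stayed so.

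Of 14 genes of the TGF-β, activin and BMP pathway 0 passed. Higher in both libraries were 5 (27.6% over all genes) and lower in both 6 (54.6% over all genes), near those shares. Of the 14, 2 were at least 2-fold higher in both and 1 at least 2-fold lower. INHBA, the activin A subunit, read 1.51 RPKM and then 7.09 and 7.93 RPKM (adjusted p = 0.144), and BMP2 2.74 RPKM and then 8.91 and 7.38 RPKM (adjusted p = 0.155). The BMP target ID1 was at 301 RPKM and then at 151 and 119 RPKM, and ID3 at 129 RPKM and then at 63.7 and 49.5 RPKM (adjusted p = 0.144 for both). With the length trend removed their differences went from -1.16 and -1.19 to -0.83 and -0.92, and ID3 was then not 2-fold lower in both libraries. Of 13 genes of the ATF4 response and amino-acid supply 12 were lower in both libraries with a median of -0.59, and the exception was ATF5, at 10.2 RPKM and then 22.1 and 21.2 RPKM (adjusted p = 0.144). Among 28 cell-cycle and mitotic genes 18 were lower in both libraries (54.6% over all genes) and 0 were 2-fold apart (median -0.33).

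Lists of AP-1, phosphatase, p38, prostaglandin and EGF receptor genes gave no call at 4 h. Of 8 AP-1 genes 0 passed; FOSL1 read 186 RPKM and then 492 and 306 RPKM (adjusted p = 0.233), and FOS, at 1.72 RPKM and then 0.399 and 0.602 RPKM, was the 1 member 2-fold lower in both. Of 9 dual-specificity phosphatases, 11 genes of the p38 pathway and 10 of prostaglandin synthesis, 0 passed and 0 were 2-fold apart in both libraries. Over all genes 0.225% passed, 1.73% were 2-fold higher in both libraries and 2.18% 2-fold lower. In lists this small, the absence of such genes is near those shares. MAP2K3, a kinase that activates p38, had the largest difference of its list, at 45.2 RPKM and then 79.1 and 79.9 RPKM (0.81 ± 0.21, adjusted p = 0.159). Among EGF receptor genes the ligand gene HBEGF was the 1 of 10 at 2-fold, at 6.54 RPKM and then 22.1 and 18.5 RPKM (adjusted p = 0.0621). Zinc finger ZNF genes had a median of -0.03, and 1 of 303 was 2-fold apart in both libraries.

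**Figure D3:**
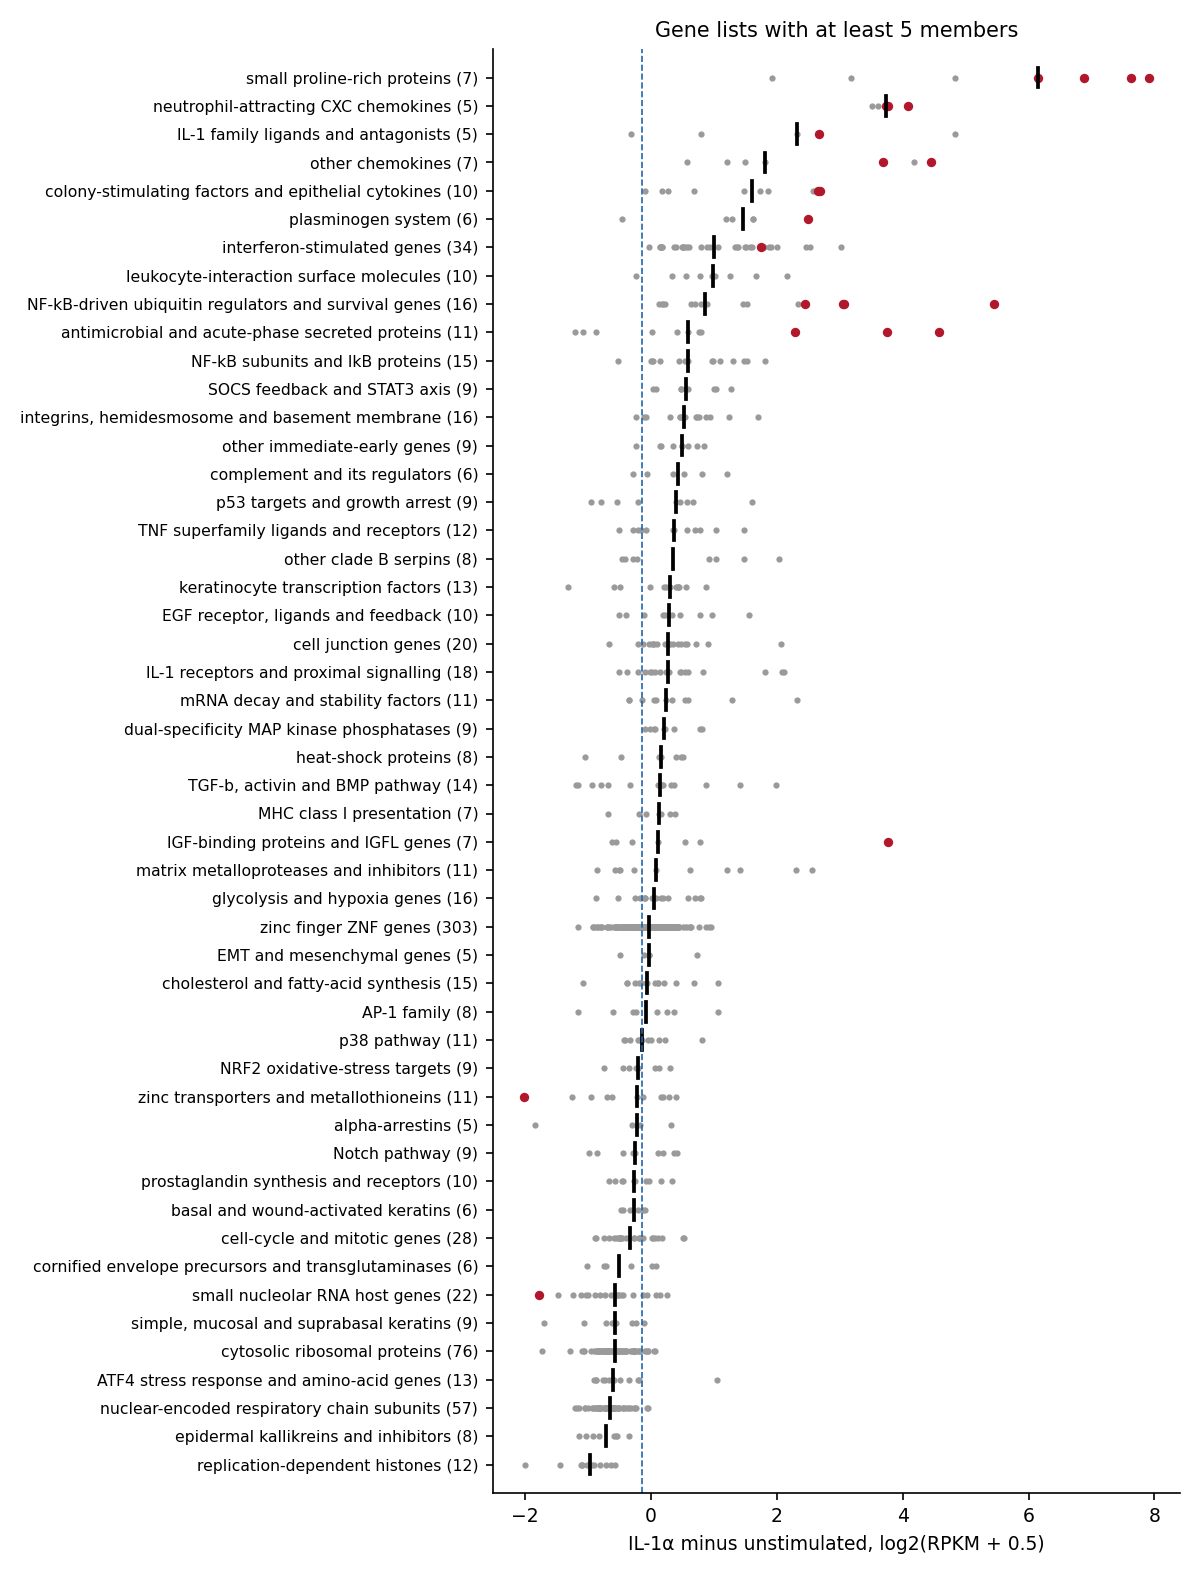
Difference after IL-1α on the log2(RPKM + 0.5) scale for each gene of the lists with at least 5 members (number of members in parentheses), as points, red where the gene passed the test; black bars are list medians and the dashed line is the median of all genes (-0.15). Medians run from 6.16 for small proline-rich proteins to -0.97 for replication-dependent histones, and the 2 red points below 0 are SLC39A2 and SNHG19.

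The decreases followed transcript length. Median differences were -0.56 for 1564 genes under 1 kb, -0.35 for 2846 genes of 1 to 2 kb, -0.13 for 4601 genes of 2 to 4 kb and 0.09 for 3446 genes over 4 kb. Spearman's rho between difference and length across genes was 0.304 in replicate 1 and 0.529 in replicate 2, as a description, since the genes share 3 libraries. Of the 271 genes at least 2-fold lower in both libraries, 172 were under 1 kb and 7 were over 4 kb, while the 215 higher ones numbered 49 and 44 in these classes. Of the 172, 59 were protein-coding, and 100 were under 0.5 kb, where few reads make 1 RPKM. Only 12 of the 100 were protein-coding. Among protein-coding genes alone the medians of the 4 classes were -0.61, -0.36, -0.12 and 0.10. With a smooth trend over length removed, the medians of the 4 classes lay between -0.15 and -0.11, 264 genes were 2-fold higher in both libraries (2.12%) and 143 lower (1.15%). These included 195 of the 215 and 117 of the 271. The limma calls became 74 up and 8 down, with 26 of the 26 rises and 1 of the 2 falls kept.

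**Figure D4:**
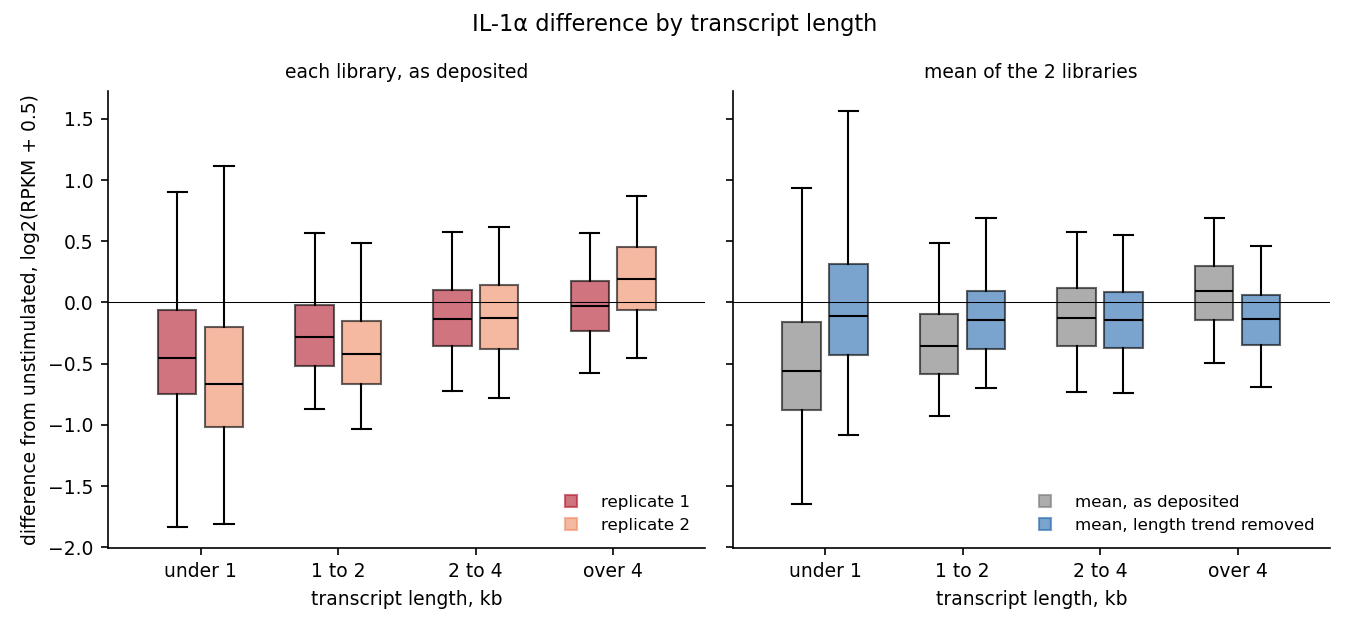
Difference from the unstimulated library by transcript length class, for each IL-1α library (left) and for their mean as deposited and with the length trend removed (right); boxes span the quartiles, the line is the median and whiskers reach the 5th and 95th percentiles. Medians climb from -0.56 under 1 kb to 0.09 over 4 kb in the mean as deposited, more steeply in replicate 2 than in replicate 1, and lie between -0.15 and -0.11 once the trend is removed.

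Lists of short transcripts carried this pattern. For comparison, 54.6% of all genes were lower in both libraries, as were 73.0% of genes under 1 kb and 85.5% of protein-coding genes under 1 kb. Of 76 cytosolic ribosomal proteins (median length 698 bases) 70 were lower in both libraries with a median of -0.57, which was -0.19 with the length trend removed. The largest difference was in RPL39, at 152 RPKM and then 50.4 and 41.1 RPKM (-1.73 ± 0.21, adjusted p = 0.0547). With the trend removed the difference of RPL39 was smaller, at -1.18, but passed (adjusted p = 0.0412). Of 57 respiratory chain subunits (763 bases) 55 were lower in both, with a median of -0.65 and of -0.32 with the trend removed. All 12 replication-dependent histones (519 bases) were lower in both, with medians of -0.97 and -0.51. HIST1H4H, the lowest of them, rested on 26 reads and then 2 and 8. Their transcripts mostly lack the poly-A tail by which mRNA kits select, and closely related copies can share reads, so their separate values are uncertain. Of 22 small nucleolar RNA host genes (990 bases) 17 were lower in both, with medians of -0.56 and -0.30. Small proline-rich proteins, with a median length of 673 bases, were the reverse: their median was 6.16 as deposited and 6.59 with the trend removed. What underlies the length trend was not tested.

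The 2 IL-1α libraries also differed from each other with transcript length. Spearman's rho between transcript length and the difference of replicate 1 from replicate 2 was -0.547 across genes. The median of that difference was 0.23 under 1 kb, 0.16 from 1 to 2 kb and -0.22 over 4 kb, but 0.048 for the 559 genes under 0.5 kb. The pair lay at least 2-fold apart for 169 genes and at least 4-fold apart for 40. Among genes reaching 5 RPKM the widest gaps were in small nucleolar RNAs and microRNAs and went both ways. Examples, named after their values were seen, were SNORD18C (66 bases, 4.65 and 0 RPKM, gap 3.36) and MIR6775 (68 bases, 0 and 3.17 RPKM, gap -2.88). At such lengths 5 RPKM rests on few reads. Of the genes described above, those of shorter transcript such as SPRR2A (483 and 295 RPKM), SPRR2D (369 and 206 RPKM) and IL36G (20.6 and 11.1 RPKM) were higher in replicate 1, and long ones such as NAV3 (5.29 and 8.64 RPKM), TNFAIP2 (142 and 221 RPKM) and LAMA3 (232 and 319 RPKM) were higher in replicate 2. For each of these 6 genes the 2 values were nearer to each other, on the log2 scale, than either was to the unstimulated library.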

How the data were processed

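Poly-A RNA of 6 HaCaT libraries was sequenced, per the labels' protocols, with a stranded TruSeq mRNA kit after Trizol and RNeasy purification. The authors deposited RPKM per gene symbol, made with bcl2fastq 2.20.0.422, STAR and HOMER on hg19, per the submitters' processing notes and the file headers; versions of the last 2 and the strand setting of the counting are not given in the sources used here, so antisense reads may be included. Depth was recovered as the read number that made values of 0.02 to 1 RPKM whole within 0.1 read (at least 99.5% of them), and rebuilt reads served for voom and for exact 95% counting intervals and floors of 3 reads, which cover counting error alone.

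Genes with 1 RPKM in at least 1 of 6 libraries (12925) were fitted with limma 3.58.1 (R 4.3.3) on log2(RPKM + 0.5), each group having its own coefficient, with a variance trend and Benjamini-Hochberg adjustment at 0.05; the pseudocount understates differences of low genes. The knockout libraries supply 1 of the 2 residual degrees of freedom. The length trend was a loess curve of span 0.5. On simulated data the fit recovered nearly every changed gene, with a larger share of false calls than the adjustment aims at. The simulated noise was independent between genes and equal in all libraries, unlike the gap between the IL-1α libraries here, which followed transcript length. The recovery therefore does not carry over to these data.

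Members and the 52 gene lists were chosen with earlier results of these data known. Named genes are the 15 largest rises and all falls at 5 RPKM or more, up to 4 largest and the 2 most abundant of each list, and the 15 largest both-library differences each way at 1 kb or more. CYP1A1, ETS1, FOS, HERC5, IFIH1, IFIT2, IL1R1, IL1RAP, IL6, IRAK2, IRF9, NAV3, OAS3, RAP1GAP, S100A7, S100A8, S100A9, SPRR1A, SPRR1B, SPRR3 and, in the plot of levels, CFLAR were named beside that rule after their values were seen. Of 27945 genes, 908 are annotated at several places; 62 of them are among the 12457. Some results are not reported here.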

Additional observations from a re-analysis of the deposited data

How the results depend on the processing

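Against 28 genes passing in limma, the count was 13 without a filter on low values, 162 with a filter at 5 RPKM, 60 with the filter on the wild-type libraries, 48 after median-of-ratios rescaling, 11 with voom weights, 82 with the length trend removed and 69 from the wild-type libraries alone. The balance of 26 higher and 2 lower became 2 and 11 without a filter, 106 and 56 at 5 RPKM, 40 and 29 from the wild-type libraries alone, 20 and 17 without the variance trend, and 31 and 15 or 30 and 14 without a knockout library. The count ranged from 0 to 46 when 1 IL-1α library was left out: 0 without either wild-type library, where the remaining one is assumed to vary like the knockout pair, and 46 or 44 without a knockout library. Of the 28, voom kept 11, the fit without a filter 2, and the fits without a knockout library 19 each; BIRC3 and PLAT passed in every fit that kept both wild-type IL-1α libraries. Against 486 genes at least 2-fold apart in both libraries, 316 remained at 5 RPKM, 1865 passed a fold of 1.5 and 85 a fold of 4. None of the 28 changed direction in any fit. Of the genes that did not pass, IL1R1 turned to -0.028 with the length trend removed; IL1RAP to 0.122 after median-of-ratios rescaling and 0.067 after quantile normalization; IFIT2 to 0.117 under both. Leaving out 1 library, IL1RAP ranged from -0.056 to 0.02, IFIT2 from -0.102 to 0.046 and ISG15 from -0.011 to 0.361. The causes were not tested. No paired analysis was possible because the unstimulated group is 1 library and shares fewer than 2 replicate numbers with the IL-1α group. With 1 unstimulated library the error of that side cannot be measured, and genes of few reads there have wide counting intervals.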
